A study of Platichthys stellatus with 16 samples.

Results

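Male liver of the starry flounder (Platichthys stellatus), a flatfish, was set against brain, gonad and muscle of males of the same age. A feature, that is an assembled gene of the deposited table, was taken to mark male liver when its level passed the test in the direction of liver against each of the other 3 male tissues. Of 16270 features listed, 871 met that rule, and 641 of them carry the name of their closest annotated protein. The series lists RNA-seq libraries of 8 groups, each 1 sex and 1 tissue, with 2 listed libraries per group. The table also holds values of a replicate 3 of each group, which match no listed sample and were not used. The groups used here are male liver, male brain, male gonad and male muscle of 3-year-old fish (8 libraries), and the matching 4 female groups (8 libraries) serve only to set female liver beside male liver. No treatment, strain or genotype is named for any group, and all fish share species and age. The sample labels say muscle where the text of the series says pituitary, and the labels were followed. The labels do not say whether the 2 libraries of a group came from separate fish, nor whether tissues were taken from the same fish, so p-values measure only the spread between these libraries.

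The liver of a bony fish secretes most proteins of the blood plasma, among them transferrin, fibrinogen, plasminogen and the complement components. It also stores glycogen and lipid, makes bile acids, breaks down amino acids and purines, and oxidises foreign compounds before they are excreted. Hepatocytes make up the bulk of the organ, and in many fishes it also holds pancreatic tissue, blood vessels and blood cells. No reference sequence was at hand for these assembled genes, so they are given by name and values alone.

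Each listed feature stood at 0.31 FPKM or more in every library, so genes silent in any of the 8 groups lie outside the comparisons. Listed counts came to 9421555 and 9661907 in the 2 male livers, within a range of 7178217 to 12972574 over the 8 male libraries. The 10 most abundant features took 19.0 and 21.8% of listed liver counts, against 2.82 to 3.91% in brain and gonad and 14.1 and 6.96% in muscle. The listed features held 58.0 to 80.5% of the fragments of a male library, by totals recovered from count and FPKM. TMM scaling, which sets the bulk of features equal between libraries, put the median of all features at −0.0043, −0.07 and 0.03 (log2, liver minus brain, gonad and muscle). Scaling by the recovered totals put it at −1.03, −1.69 and −0.25, so every difference below is relative to the median feature under TMM. Levels are counts after TMM scaling to a common library size (CPM), differences are log2 of liver over the other tissue ± SE, and adjusted p-values are from edgeR's quasi-likelihood F test with Benjamini-Hochberg adjustment over all 16270 features, with a threshold of 0.05.

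Against male brain, 2152 features (13.2%) were higher in male liver and 2017 (12.4%) lower. The split was 2474 (15.2%) higher and 2454 (15.1%) lower against male gonad, and 2047 (12.6%) higher and 2179 (13.4%) lower against male muscle. Under the recovered totals the splits became 815 higher and 5862 lower against brain, 669 and 9657 against gonad, and 1183 and 2442 against muscle. The features higher than in each of the 3 tissues numbered 871 (5.35% of those tested), and 524 of them (3.22%) did so by a log2 difference of 2 or more in each. Lower in liver than in each tissue were 273 (1.68%), of which 73 (0.449%) by a log2 difference of −2 or less. The recovered totals left 305 features higher in each, 304 of them among the 871, and gave 1222 lower in each. Without any test, both liver libraries lay above all 6 other male libraries in 2208 features (13.6%) and below all 6 in 1690 (10.4%).

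The counts depend on single libraries. Against brain, 545 features were higher and 750 lower without male brain 1, 995 and 1254 without male brain 2, and 908 and 660 without male liver 1, with 944 lower without male liver 2. Against gonad, 905 were higher and 812 lower without male gonad 1, 1347 and 1469 without male gonad 2, and 1285 and 759 without male liver 1, with 967 lower without male liver 2. Against muscle, 1015 were higher and 892 lower without male liver 1, and 1278 and 937 without male liver 2, with 1274 higher without male muscle 1. The number of marking features was 385 without male brain 1, 565 without male brain 2, 414 without male liver 1 and 501 without male gonad 1, and it lay between 590 and 903 without any one of the other 4. The 524 features with the larger difference became 321 without male brain 1. With each of the 8 male libraries left out in turn, 277 of the 871 passed every time, and 228 of those also passed under the recovered totals. The count of features lower in each tissue was 39 without male liver 1, 77 without male liver 2, 121 and 159 without male brain 1 and 2, and 113 and 143 without male gonad 1 and 2. The last feature inside the threshold had a largest adjusted p of 0.0497 over its 3 comparisons, and the first outside had 0.0501.

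The smallest of the 3 log2 differences of a marking feature had a median of 2.25 and ran from 0.93 to 13.43. It reached 4 or more in 102 features, 8 or more in 21 and 10 or more in 14. The tissue nearest to liver was brain for 327, gonad for 264 and muscle for 280 of the 871, shares of 37.5, 30.3 and 32.1% that lie near the 32.7, 32.8 and 34.5% over all features. By the same rule that chose them, the 871 features held 38.2 and 41.0% of the listed counts of the 2 livers, against 3.57 and 4.54% in brain, 3.79 and 3.81% in gonad and 1.66 and 2.71% in muscle. The livers themselves differed by more than 2-fold in 140 of the 871 (16.1%), a share like the 16.6% over all features, and 111 of these 140 were higher in male liver 1. That direction was not counted over all features, so it cannot be called particular to the marking features. Median length was 2043 bases for the marking features and 1984 bases for all features. A further 1087 features were higher than 2 of the 3 tissues, and the missing tissue was brain in 351, gonad in 199 and muscle in 537.

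Of the 15 named features with the largest smallest difference, 1 per name, 14 are given here: VMO1, hpx, c3, tf, PLG, FGA, FGB, SERPINA, BBS1, cpq, FMO5, H6PD, Akr1b8 and haao. The first, VMO1, is no plasma protein by its name, while hpx, c3, tf, PLG, FGA and FGB are proteins of the blood plasma. Each of the 14 passed under every alternative tried, the 8 left-out libraries included.

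**Figure D1:**
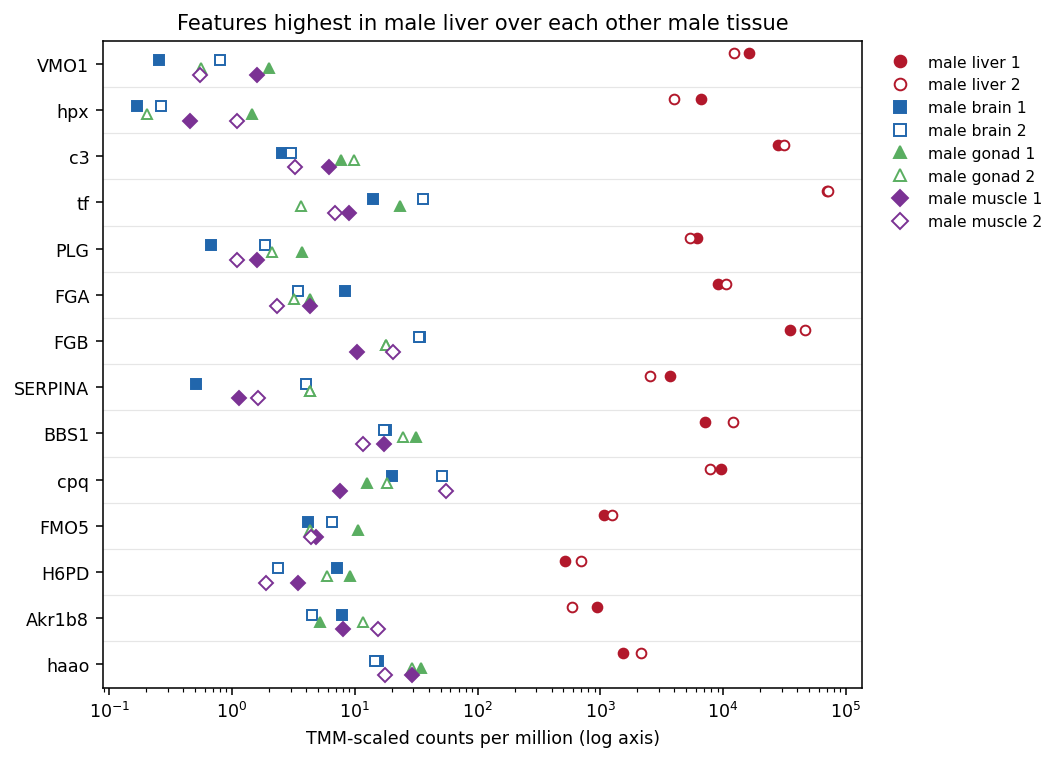
TMM-scaled CPM (log axis) of 14 of the 15 named features with the largest smallest difference, in each of the 8 male libraries. Every liver point lies to the right of the other 6 libraries of its row, as the choice of these features required. For tf the livers stood at 69891 and 71157 CPM, against 3.63 to 35.7 CPM in the other tissues.

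Transferrin (tf), the iron carrier of plasma, had 69891 and 71157 CPM in male liver, against 14.2 and 35.7 in brain, 23.4 and 3.63 in gonad and 8.91 and 6.95 in muscle. Its differences were 11.46 ± 1.497, 12.35 ± 1.54 and 13.12 ± 1.59 from brain, gonad and muscle (largest adjusted p = 0.0018). It alone took 4.15 and 5.11% of the listed liver counts, a share that also grows with transcript length. Both livers were close together, and no other male library came near them. The heme scavenger hemopexin (hpx) had 6569 and 3979 CPM in liver, against 0.17 and 0.265 in brain, 1.45 and 0.202 in gonad and 0.457 and 1.09 in muscle. Apart from male gonad 1, those low values are few reads in a library, and the 2 gonad libraries lay apart. The differences of 12.63 to 14.49 are thus loose in size. Of the 4 listed features of the plasma transport list, 3 marked liver, namely tf, hpx and PON2. Only 4 of its 39 chosen symbols matched a listed feature, so the share speaks for listed features alone. The other lists of liver functions below were matched in part too. Matches ran from 6 of 37 symbols for complement to 54 of 63 for fatty acid oxidation and peroxisomes. The paraoxonase PON2, in the list by its name alone, had 355 and 424 CPM in liver and 7.72 to 20.1 CPM in the other 6 libraries. Whether its product is a plasma protein was not tested. The remaining feature was called higher than in brain and gonad, but neither higher nor lower than in muscle. The median smallest difference of the 4 features was 7.93, against −0.83 over all features tested. Under the recovered totals the median over all features was −2.01, the value to set beside each list's median under those totals below. Over all features 5.35% marked liver, the share to set beside the main count of each list below. The lists were chosen with earlier results of these data known, so such shares are descriptions and no tests. Under the recovered totals the marking features among all 16270 fell from 871 to 305. With 1 library left out their number mostly fell as well, as given above. A list's count under such an alternative is to be read beside these falls, not beside 5.35%.

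In the coagulation and fibrinolysis list 9 of 40 chosen symbols matched a listed feature. Of its 10 features, 7 marked liver and none was lower in each tissue (1.68% over all features). The fibrinogen beta chain FGB, a subunit of the clot-forming protein, had 34909 and 46729 CPM in liver, against 33.7 and 33.5 in brain, 18.0 and 17.8 in gonad and 10.5 and 20.6 in muscle. The alpha chain FGA had 9146 and 10553 CPM in liver and 2.32 to 8.39 CPM elsewhere. Brain was the nearest tissue for both chains, with log2 differences of 10.24 ± 0.97 and 10.70 ± 0.89. Plasminogen (PLG), the precursor of the clot-dissolving protease plasmin, was listed as 2 features, with 6076 and 5414 CPM and 2193 and 1361 CPM in liver, and none above 3.74 CPM in another male library. F9, coagulation factor IX, was lower than these but also separate, at 799 and 733 CPM in liver, 36.1 and 39.0 in brain, 11.9 and 5.70 in gonad and 4.34 and 3.68 in muscle. GGCX and VKORC1, which serve the vitamin K dependent carboxylation that clotting factors need, were the remaining 2 names. Among the features that did not mark liver, tissue factor (F3), the cell-surface trigger of clotting, was lower than in gonad and muscle. It had 1.61 and 2.02 CPM in liver, against 15.5 and 37.9 in muscle (−3.87 ± 0.60, adjusted p = 0.0030). The rest were neither higher nor lower than in any tissue. The 7 features passed with each male library left out and under the recovered totals, and the median smallest difference of the 10 was 4.25, against −0.83 over all features.

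Complement, the protein cascade of innate immunity, had 5 of 8 features marking liver, with 6 of 37 chosen symbols matched. Its central component c3 was listed as 2 features. The more abundant had 79807 and 47892 CPM in liver, against 3.73 and 3.10 in brain, 30.4 and 23.8 in gonad and 6.17 and 5.59 in muscle (11.20 ± 1.07 from gonad, its nearest tissue, adjusted p = 0.00079). The other c3 feature had 28191 and 31185 CPM in liver and 2.54 to 9.78 CPM elsewhere. C4A, a component of the classical and lectin pathways, had 4704 and 3996 CPM in liver, but the other tissues were uneven, with 25.6 and 228 CPM in gonad and 80.9 and 608 CPM in muscle. Its adjusted p against muscle was 0.0487, and 0.067 to 0.15 with male brain 1 or 2, male liver 1 or 2, male gonad 1 or male muscle 1 left out. The other 3 features, CD46 and C1s among them, did not pass in all 3 comparisons. In the list of plasma protease inhibitors, 6 of 21 chosen symbols matched a listed feature. Of its 10 features 1 marked liver, a count near the 5.35% of all features. That list was matched by gene name and holds neither SERPINA (smallest difference 9.49) nor a feature described as AMBP (12.5), both of which marked liver. The 1 feature was PZP, a member of the alpha-2-macroglobulin family, at 2369 and 2660 CPM in liver, 107 and 172 in brain, 21.4 and 22.5 in gonad and 11.9 and 66.8 in muscle (adjusted p = 0.0072, and 0.08 without male brain 1). Serpina10, an inhibitor of clotting factor Xa, had 148 and 185 CPM in liver, against 781 and 684 in brain (−2.14 ± 0.48, adjusted p = 0.014). It lost that call without male brain 1 (0.076), male liver 1 (0.10) or male liver 2 (0.057).

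Beyond the carrier, a few other features of iron handling marked liver. TFRC, the receptor that takes up iron-loaded transferrin, had 1712 and 2729 CPM in liver, against 70.0 and 85.3 in brain, 223 and 281 in gonad and 201 and 278 in muscle (3.14 ± 0.47 from gonad, adjusted p = 0.0028). Ferroportin (slc40a1), the iron exporter of cells, had 168 and 307 CPM in liver for its first feature, against 4.24 to 11.5 in brain and gonad and 8.23 and 44.2 in muscle. Its adjusted p was 0.0216, against 0.093 without male liver 2, 0.058 without male muscle 1 and 0.060 under the recovered totals. ALAS1, the first enzyme of heme synthesis, lay between the tissues, at 336 and 494 CPM in liver, 265 and 323 in brain, 78.4 and 145 in gonad and 1441 and 1043 in muscle. In all, 5 of 25 features of the iron, heme and copper list marked liver, and 3 without male liver 2 or under the recovered totals. The 5 are 20% of the list, against 5.35% of all features. A gene in 2 lists counts in both, and tf and hpx of the plasma transport list are among these 5. The median smallest difference of the 25 was −0.07, or −1.04 under the recovered totals.

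Among 30 features of lipoproteins and lipid transport, 12 marked liver (40%, against 5.35% of all features). The liver basic fatty acid-binding protein fabp10a, a carrier of fatty acids and bile acids inside hepatocytes, had 674 and 1485 CPM in liver, against 52.1 and 36.8 in brain, 85.7 and 54.7 in gonad and 29.3 and 19.2 in muscle (3.94 ± 0.55 from gonad, adjusted p = 0.0023). Perilipin 2 (PLIN2), a coat protein of lipid droplets, was listed several times. Its steadiest feature had 197 and 184 CPM in liver, against 4.15 and 5.04 in brain, 16.3 and 18.2 in gonad and 26.1 and 35.6 in muscle. LIPG, the endothelial lipase, had 1716 CPM in male liver 1 but 176 CPM in male liver 2, against 23.0 and 31.9 in brain, 5.36 and 2.12 in gonad and 19.7 and 11.7 in muscle. Its call (adjusted p = 0.010) was lost without male brain 1 (0.094) or male brain 2 (0.060). On the other side, VLDLR, the receptor for very low density lipoprotein, had 8.04 and 4.62 CPM in liver, against 61.6 and 52.9 in brain (−3.18 ± 0.41, adjusted p = 0.0017). ANGPTL4, an inhibitor of lipoprotein lipase, had 20.5 and 61.3 CPM in liver, against 341 and 290 in muscle (−2.94 ± 0.59, adjusted p = 0.0083). The 12 features became 6 without male brain 1 or without male brain 2, 7 without male liver 1 and 5 under the recovered totals, and the median smallest difference of the 30 was 1.57 (0.53 under those totals).

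Bile acid and bile transport features marked liver in 7 of 13. The bile acid exporter subunit slc51a had 417 and 220 CPM in liver, against 4.75 and 13.1 in brain, 0.167 and 0.252 in gonad and 2.06 and 6.95 in muscle (5.16 ± 0.73 from brain, adjusted p = 0.0025). SLC27A2, a very long-chain acyl-CoA synthetase that also activates bile acids, had 199 and 159 CPM in liver and 2.74 to 11.3 CPM in the other 6 libraries. CYP7B1, a hydroxylase of the alternative bile acid pathway, differed between the livers, at 430 and 76.0 CPM, against 10.6 to 27.0 CPM elsewhere. Its call (adjusted p = 0.0137) was lost without male brain 1 (0.082), male brain 2 (0.053), male liver 1 (0.081), male gonad 2 (0.053) or male muscle 1 (0.081). The remaining names were SCP2, Hsd3b7 and Abcg8, a sterol transporter into bile. ATP8B1, a lipid flippase named in bile transport, had 57.5 and 69.0 CPM in liver, against 355 and 303 in muscle (−2.38 ± 0.35, adjusted p = 0.0024).

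**Figure D2:**
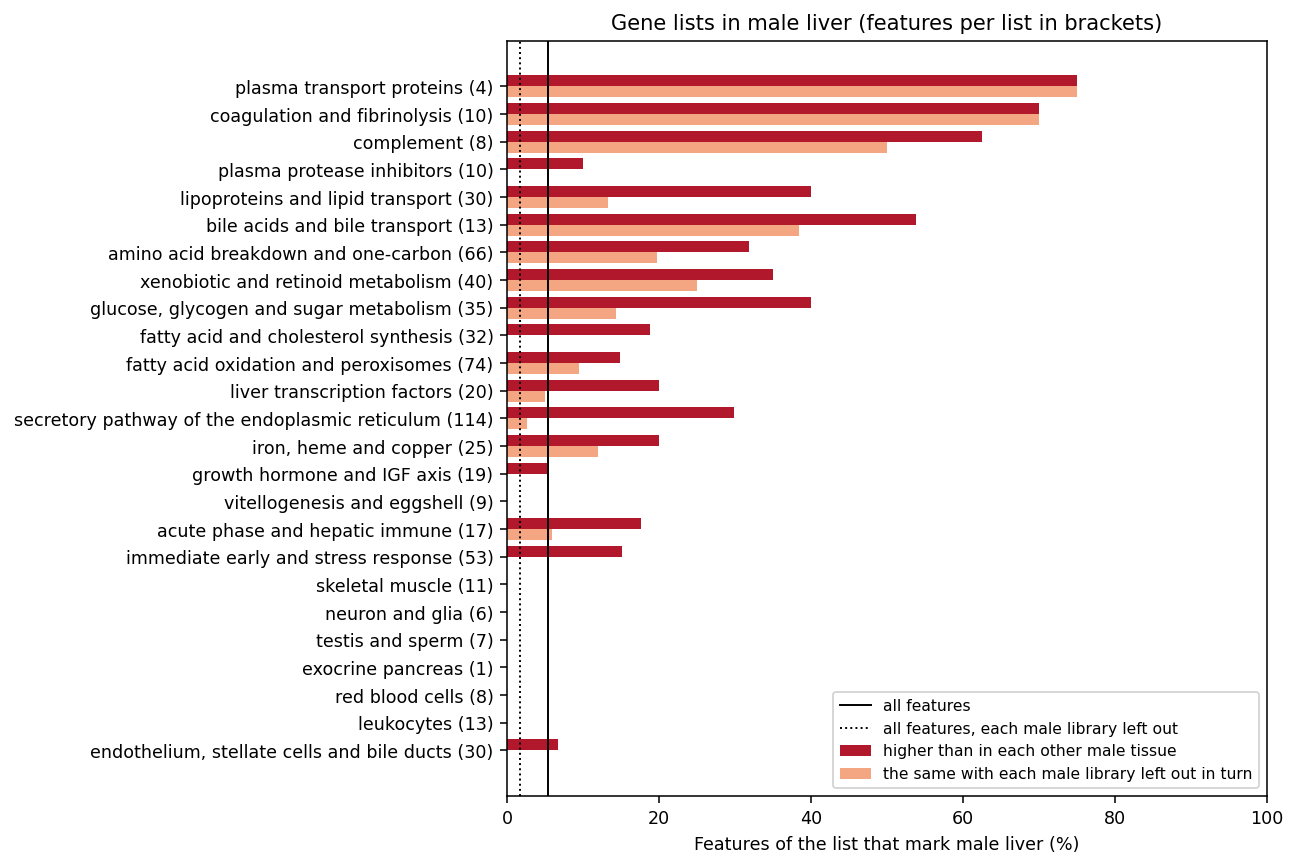
Share (%) of each list's features that marked male liver (dark bars) and that did so with each of the 8 male libraries left out in turn (light bars). Vertical lines give the same 2 shares over all features, 5.35 and 1.70%. The plasma transport and coagulation lists kept their full share, at 75.0 and 70.0% of their listed features. Only 4 of 39 and 9 of 40 of their chosen symbols matched a listed feature.

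Amino acid breakdown and one-carbon metabolism had 21 of 66 features marking liver (31.8%, against 5.35% of all features). Lower than in each tissue were 3, against 1.68% of all features. Under the recovered totals 13 marked liver, and the median smallest difference of the list was −0.26, against 0.59 under TMM. The enzyme haao of the kynurenine route, which leads from tryptophan towards NAD, had 1529 and 2127 CPM in liver, against 15.3 and 14.5 in brain, 34.8 and 29.0 in gonad and 29.5 and 17.6 in muscle (5.84 ± 0.51 from gonad, adjusted p = 0.00072). Both enzymes that oxidise sarcosine were in the list. PIPOX, the peroxisomal one, had 396 and 428 CPM in liver and 3.39 to 17.0 CPM elsewhere. SARDH, the mitochondrial one, had 169 and 189 CPM in liver and 3.01 to 11.6 CPM elsewhere. Uricase (UOX), which breaks down uric acid, stood lower, at 91.5 and 27.8 CPM in liver and 1.33 to 3.53 CPM elsewhere. In contrast, bhmt, which remethylates homocysteine with betaine and is known as a liver enzyme in mammals, had 3.93 and 4.76 CPM in male liver, against 1.10 and 3.27 in brain, 53.8 and 30.2 in gonad and 3047 and 1522 in muscle. Its difference from muscle was −9.03 ± 0.83 (adjusted p = 0.00066), while other copies of the gene, if any, may be absent from the table. MTHFD2, a mitochondrial folate enzyme, was lower than in each tissue, with 4.82 and 1.59 CPM in liver and 15.9 to 129 CPM elsewhere, a call lost without male liver 2 (0.14), male gonad 1 (0.064) or male gonad 2 (0.085).

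Enzymes that act on foreign compounds marked liver in 14 of 40 features, and 10 of these passed with each library left out, while 9 of the list passed under the recovered totals. The flavin monooxygenase FMO5 had 1063 and 1253 CPM in liver, against 4.15 and 6.54 in brain, 10.6 and 4.33 in gonad and 4.80 and 4.36 in muscle (7.28 ± 0.62 from gonad, adjusted p = 0.00072). Microsomal glutathione transferase MGST1 had 1042 and 1135 CPM in liver, 0.339 and 0.619 in brain, 2.18 and 0.806 in gonad and 12.8 and 26.2 in muscle. The carboxylesterase named CES2 had 1049 and 1015 CPM in liver and 5.48 to 21.2 CPM elsewhere. The cytochrome P450 cyp3a56, of the family that oxidises many drugs in mammals, had 1553 and 1160 CPM in liver and 9.33 to 36.8 CPM elsewhere. For all 4 of these features the livers lay close together and far from the other 6 libraries. The retinol dehydrogenases Rdh14 and RDH13 were lower than in muscle, with 15.5 and 16.3 CPM and 15.01 and 14.4 CPM in liver, against 149 and 130 CPM and 97.1 and 64.3 CPM in muscle. The median smallest difference over the 40 was 0.18, and −0.13 under the recovered totals.

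Of 35 features of glucose, glycogen and sugar metabolism, 14 marked liver, a count of 9 without male brain 1, without male liver 1 or under the recovered totals. PYGL, the liver form of glycogen phosphorylase, had 810 and 1010 CPM in liver and 1.60 to 32.3 CPM elsewhere, with an adjusted p of 0.0055, and of 0.061 without male brain 1. H6PD, which makes NADPH inside the endoplasmic reticulum, had 516 and 698 CPM in liver and 1.91 to 9.10 CPM elsewhere. Other members were lower. Glycogenin (GYG1), the primer of glycogen synthesis, had 4.29 and 27.1 CPM in liver, against 1354 and 543 in muscle (−5.91 ± 0.92, adjusted p = 0.0030).

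The list of fatty acid oxidation and peroxisomes had 11 of 74 features marking liver (14.9%), and 7 under the recovered totals. Catalase, which breaks down hydrogen peroxide in peroxisomes, was listed as 3 features (cat, Cat) that all marked liver. One of them had 895 and 907 CPM in liver, against 34.1 and 28.7 in brain, 26.4 and 31.5 in gonad and 47.1 and 34.9 in muscle (4.46 ± 0.40 from muscle, adjusted p = 0.00072). The peroxisomal bifunctional enzyme ehhadh had 434 and 303 CPM in liver and 13.7 to 27.0 CPM elsewhere. ACOX3, HSD17B4, HACL1 and PEX11G, which are known from peroxisomes too, also marked liver. So did Ppara, the receptor that controls such genes in mammals, but its call (adjusted p = 0.0229) was lost without either brain library or either liver library (0.071 to 0.13) and under the recovered totals (0.26). The mitochondrial thiolase Acaa2 had 73.1 and 75.5 CPM in liver, against 1027 and 346 in muscle (−3.21 ± 0.56, adjusted p = 0.0047). The list's median smallest difference was −0.29, against −0.83 over all features. Under the recovered totals it was −1.12, against −2.01 over all features. Most features of the list thus did not stand above all 3 tissues, though its median lay above that of all features.

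Fatty acid and cholesterol synthesis had 6 marking features of 32 (18.75%, against 5.35% of all features), and 3 of them are given here. The median smallest difference of the list was 0.39, and −0.80 under the recovered totals. HMGCS1, which makes the precursor of mevalonate, had 69.5 CPM in male liver 1 and 882 in male liver 2, against 34.4 and 25.2 in brain, 6.59 and 10.03 in gonad and 48.0 and 43.2 in muscle. Sc5d, a late enzyme of cholesterol synthesis, had 39.5 and 370 CPM in liver and 1.77 to 18.7 CPM elsewhere. Both were higher in male liver 2, while insig1, a sterol sensor, was higher in male liver 1 (454 and 269 CPM). The smallest differences, 3.38 for HMGCS1, 3.47 for Sc5d and 3.98 for insig1, had adjusted p-values of 0.0325, 0.0258 and 0.0151. Each of the 3 lost its call without several libraries, HMGCS1 most (0.41 without male liver 2). The list's count was 0 without male brain 1, 2 without male brain 2 or male gonad 1 and 3 without male liver 2, so none of the 6 passed with each library left out. The mitochondrial thiolase acat1 was lower than in each tissue, at 14.5 and 25.2 CPM in liver and 86.0 to 1164 CPM elsewhere, a call also lost without either brain library, either liver library or male gonad 1 (0.058 to 0.17).

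**Figure D3:**
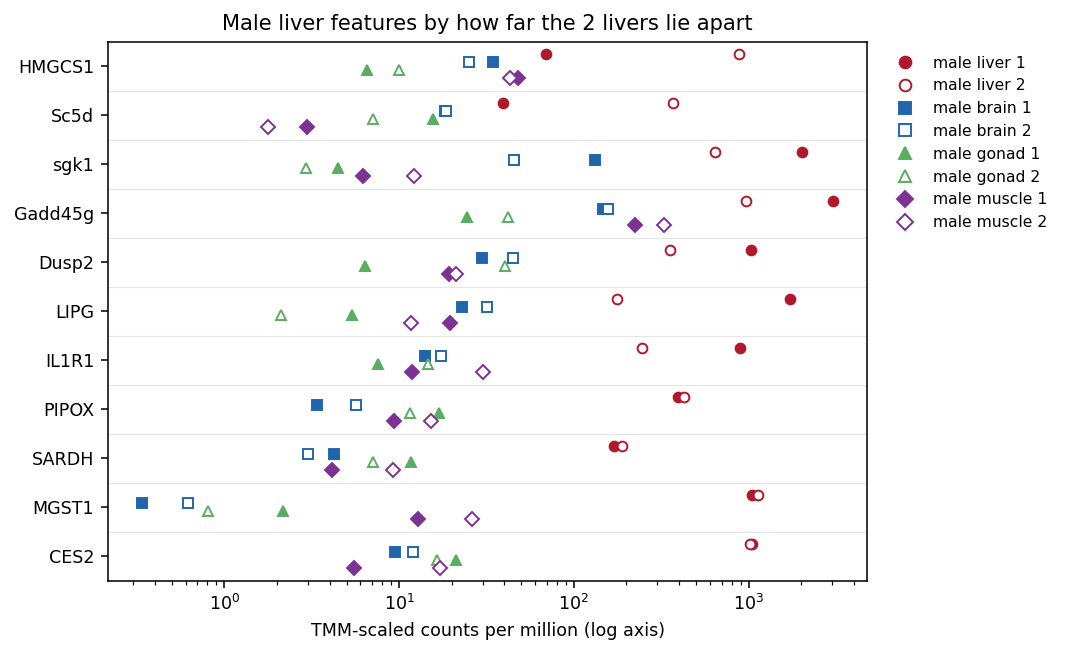
TMM-scaled CPM (log axis) in each male library for 7 marking features whose 2 livers lie apart and 4 whose livers lie together, chosen after their values were seen. HMGCS1 and Sc5d are higher in male liver 2, the next 5 in male liver 1, and PIPOX, SARDH, MGST1 and CES2 show both livers side by side.

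The machinery that folds and exports secreted proteins had 34 of 114 features marking liver (29.8%, against 5.35% of all features). None was lower in each tissue (1.68% over all features). Protein disulfide isomerase (P4HB), which forms disulfide bonds, had 4181 and 2290 CPM in liver, against 256 and 513 in brain, 431 and 317 in gonad and 362 and 404 in muscle (3.07 ± 0.56 from brain, adjusted p = 0.0066, and 0.076 without male brain 1). Its relative PDIA4 had 1240 and 1286 CPM in liver and 39.3 to 134 CPM elsewhere. Lman1, the cargo receptor that carries clotting factors from the endoplasmic reticulum in mammals, had 350 and 237 CPM in liver, against 17.8 and 38.3 in brain, 17.9 and 13.9 in gonad and 46.9 and 30.3 in muscle. PDIA4 and Lman1 passed under every alternative tried. Across the list the differences were modest, with a median smallest difference of 1.03, and of 0.01 under the recovered totals. The 34 features became 6 without male brain 1, 11 without male liver 1 or male gonad 1, and 8 under the recovered totals, and 3 passed with each library left out. A calnexin feature (CANX), a lectin chaperone of the same compartment, had 24.8 and 26.4 CPM in liver, against 163 and 187 in gonad (−2.77 ± 0.37, adjusted p = 0.0018).

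Transcription factors known for liver marked it in 4 of 20 features (20%, against 5.35% of all features), among them Klf15, TCF7L2 and Ppara. TCF7L2, a factor of Wnt signalling, lost its call (adjusted p = 0.0225) without either liver or either gonad library (0.074 to 0.13), and its smallest difference was 0.16 under the recovered totals (0.82), against 1.78 under TMM. Klf15, a regulator of amino acid and glucose metabolism in mammals, had 144 and 36.9 CPM in liver, against 4.75 and 3.27 in brain, 5.64 and 2.27 in gonad and 7.77 and 3.68 in muscle (4.004 ± 0.78 from muscle, adjusted p = 0.0076). Klf15 passed under every alternative. The list's median smallest difference was 0.62, and −0.54 under the recovered totals. Its count was 1 without male liver 1 or under the recovered totals, and 2 without male gonad 1 or male gonad 2. Growth hormone and IGF signalling gave 1 marking feature of 19 (GRB10, an adaptor of insulin and IGF receptors, at 54.0 and 41.5 CPM in liver and 4.84 to 14.7 CPM elsewhere), a share of 5.26% that is near the 5.35% of all features. GRB10 lost its call without male brain 1, male liver 1 or 2, or male muscle 1 (0.061 to 0.12), and none of the 19 marked liver under the recovered totals. Of 9 features of the list of vitellogenesis and eggshell proteins, none marked male liver in edgeR, also at an unadjusted p below 0.05 or in DESeq2, and 1 did with a replicate block. None among so few is near the 5.35% of all features, so it is no result about the list. VMO1, whose namesake is a protein of the bird egg's vitelline membrane and which was not in that list, was the named feature furthest above each tissue. It had 16234 and 12201 CPM in liver, against 0.254 and 0.796 in brain, 2.01 and 0.554 in gonad and 1.60 and 0.545 in muscle (13.43 ± 1.23 from gonad, adjusted p = 0.00073).

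Immediate early and stress response genes, which cells switch on within minutes of a stimulus, had 8 of 53 features marking male liver (15.1%, against 5.35% of all features). Lower in each tissue was 1 (1.68% over all features). The list was chosen with earlier results of these data known, so its share is a description and no test. Under the recovered totals 4 marked liver, and the median smallest difference of the list was −0.24, or −1.05 under those totals. Gadd45g, a stress sensor, had 3035 CPM in male liver 1 and 972 in male liver 2, against 148 and 158 in brain, 24.6 and 41.9 in gonad and 224 and 328 in muscle (2.86 ± 0.62 from muscle, adjusted p = 0.0115). The kinase sgk1, induced by salt and glucocorticoids, had 2013 and 639 CPM in liver, 131 and 45.5 in brain, 4.47 and 2.92 in gonad and 6.17 and 12.1 in muscle. Dusp2, a phosphatase of MAP kinases, had 1028 and 353 CPM in liver and 6.36 to 44.7 CPM elsewhere. All 3 features were higher in male liver 1 than in male liver 2. Both livers exceeded the other 6 libraries, as they did for all 871 marking features. The adjusted p of Gadd45g was 0.056 to 0.066 without male brain 1, male liver 1 or male muscle 1, that of Dusp2 0.057 to 0.10 without either brain library or male liver 1, and that of sgk1 0.055 without male brain 2. The list's count was 1 without male brain 1 or male liver 1 and 2 without male brain 2 or male muscle 1. The summed level of all 53 features was 10373 to 25127 CPM in liver, 5472 to 5669 in brain, 3001 to 3514 in gonad and 17165 to 20621 in muscle, so liver and muscle overlapped in the sum. Other members were low in liver, such as PIM3, with 4.11 and 7.50 CPM in liver, against 809 and 380 in gonad (−6.67 ± 0.61, adjusted p = 0.00073). In the acute phase and immune list 3 of 17 features marked liver (17.6%, against 5.35% of all features), and the median smallest difference was 0.50, or −0.53 under the recovered totals. The interleukin 1 receptor IL1R1 had 892 and 246 CPM in liver and 7.59 to 30.3 CPM elsewhere, and passed under every alternative. TNFAIP3, an inhibitor of inflammatory signalling, gave the other 2 features, at 68.5 to 112 CPM in liver. Both lost their call without male brain 1 or 2, male liver 1, male gonad 1 or male muscle 1 (0.068 to 0.14), and one also without male liver 2 (0.070). The list's count was 6 without male muscle 2 and 1 without either brain library, male liver 1, male gonad 1 or male muscle 1, or under the recovered totals.

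Under TMM fewer features were lower (273) than higher (871) in male liver than in every other tissue, an order that turned round under the recovered totals (1222 lower and 305 higher). The differences of the 273 had a median of −1.63 and a largest of −4.71 for the difference nearest to 0. IDH2, the mitochondrial isocitrate dehydrogenase that makes NADPH, had 4.29 and 10.96 CPM in liver, against 295 and 215 in brain, 184 and 219 in gonad and 2179 and 535 in muscle (−4.71 ± 0.79 from gonad, adjusted p = 0.0043). A dystrophin feature (DMD), a link between cytoskeleton and membrane, had 1.79 and 1.30 CPM in liver, against 23.1 and 19.2 in brain, 17.4 and 20.6 in gonad and 55.1 and 65.0 in muscle (−3.62 ± 0.39 from gonad). The 2 livers lay below the other 6 libraries in both, which the choice of these features required and which held for all 273.

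**Figure D4:**
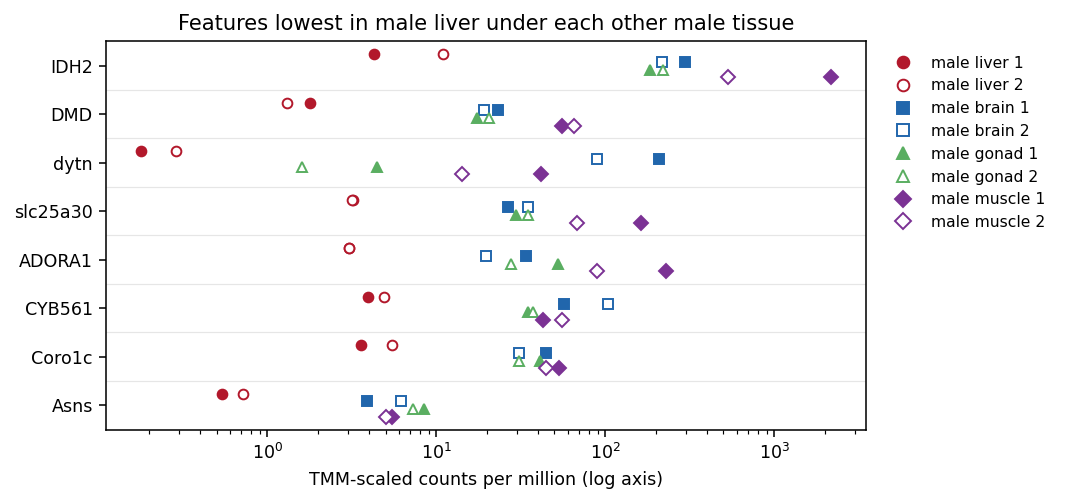
TMM-scaled CPM (log axis) of the 8 named features furthest below each other male tissue, in each of the 8 male libraries. Both livers lie to the left in every row, as the choice of these features required. For IDH2 they stood at 4.29 and 10.96 CPM, against 184 CPM or more in the other tissues.

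The mitochondrial carrier slc25a30 had 3.22 and 3.17 CPM in liver and 26.6 to 162 CPM elsewhere, and CYB561, an electron carrier of secretory vesicle membranes, 3.93 and 4.90 CPM in liver and 34.9 to 104 CPM elsewhere. Coro1c, an actin-binding coronin, had 3.57 and 5.48 CPM in liver and 30.7 to 53.5 CPM elsewhere. These 3, IDH2 and DMD passed under every alternative. The adenosine receptor ADORA1 and asparagine synthetase (Asns), an enzyme of amino acid synthesis, lost their calls without male liver 1 (0.058 and 0.053), and dytn, a relative of dystrophin, without male liver 1 (0.14), male liver 2 (0.12) or male gonad 1 (0.13). Asns had 0.536 and 0.721 CPM in liver, against 3.90 to 8.49 CPM elsewhere.

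Single contrasts showed what each other tissue has over liver. Against brain, clusterin (CLU), a secreted chaperone, had 5.003 and 9.23 CPM in liver and 1682 and 830 in brain (−7.46 ± 1.09, adjusted p = 0.0028), but also 199 and 1538 in muscle. GNG13, a G protein subunit, had 1.25 and 0.433 CPM in liver and 146 and 41.2 in brain. Against gonad, the replication helicase subunit mcm2 had 2.68 and 4.33 CPM in liver and 816 and 640 in gonad (−7.69 ± 0.60, adjusted p = 0.00067). The cell division enzyme ube2c had 1.07 and 1.59 CPM in liver and 56.2 and 41.6 in gonad. Against muscle, tropomyosin (TPM3), a thin filament protein, had 5.72 and 24.5 CPM in liver and 41665 and 8964 in muscle (−10.70 ± 1.41, adjusted p = 0.0017). UGP2, which makes UDP-glucose for glycogen, had 1664 and 2286 CPM in liver, 20.5 and 18.7 in brain and 11.8 and 10.5 in gonad, and 1845 and 277 in muscle. Its difference from muscle did not pass (0.90 ± 0.74, adjusted p = 0.41), and the muscle libraries lay far apart.

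Markers of other tissues and cell types were summed over each list. Few of the chosen symbols matched a listed feature, so each sum covers only part of its list. The matches were 8 of 40 for skeletal muscle, 6 of 38 for neurons and glia and 7 of 47 for testis and sperm. They were 1 of 27 for exocrine pancreas, 5 of 24 for red blood cells and 9 of 29 for leukocytes. For endothelium, stellate cells and bile ducts they were 13 of 34. The summed level of 11 skeletal muscle features was 218 to 245 CPM in liver, against 967 to 976 in brain, 179 to 276 in gonad and 16459 to 51981 in muscle. Aldolase A (Aldoa), the muscle isozyme of that list, had 2.50 and 6.64 CPM in liver, against 13037 and 4295 in muscle (−10.87 ± 1.03, adjusted p = 0.00068). The 6 features for neurons and glia summed to 116 to 164 CPM in liver, 253 to 275 in brain, 61.6 to 140 in gonad and 400 to 914 in muscle. The sum of these 6 was thus highest in muscle, which says little of neurons and glia with so few symbols matched. Of the 6 features, 2 were lower in liver than in brain and 2 lower than in muscle, against 12.4 and 13.4% of all features. Myelin basic protein (MBP) had 3.93 and 3.61 CPM in liver and 93.0 and 96.9 in brain. ENO2, an enolase, was lower in liver than in muscle (−5.23, adjusted p = 0.0038). The 7 testis and sperm features summed to 187 to 198 CPM in liver, 109 to 112 in brain, 447 to 505 in gonad and 191 to 327 in muscle. None of these 24 features marked liver in edgeR, also at an unadjusted p below 0.05, nor in DESeq2. With 5.35% of all features marking liver, none among so few is near that share. For red blood cells the 8 features summed to 387 to 396 CPM in liver, against 384 to 535 in brain, 139 to 152 in gonad and 332 to 568 in muscle. Of the 8, 3 were lower in liver than in brain and 1 was higher than in gonad, against 12.4 and 15.2% of all features. Their median differences were −1.85 from brain, 1.35 from gonad and −0.10 from muscle. Leukocyte features (13) summed to 2075 to 5867 CPM in liver, against 953 to 1701 in brain, 456 to 3205 in gonad and 794 to 2684 in muscle, and male liver 1 was the highest library. Their median differences were 0.35 from brain, −0.18 from gonad and −0.74 from muscle, so the sum does not speak for most members. LCP1 was higher than in brain (10.43, adjusted p = 0.022) and CYBB lower (−2.72, adjusted p = 0.0071). Each lost its call under some alternatives. None of the 13 marked liver in edgeR, while 1 did at an unadjusted p below 0.05, 1 without male gonad 2, 1 in DESeq2 and 1 with a replicate block. The 1 exocrine pancreas feature (CTRL, a protease) had 28.8 to 301 CPM in liver, 14.4 to 15.8 in brain, 54.9 to 59.1 in gonad and 67.2 to 125 in muscle, so it was uneven between the livers. Of 30 features for endothelium, stellate cells and bile ducts, 14 were lower than in muscle, against 13.4% of all features. Of the same 30, 2 marked liver (6.67%, near the 5.35% of all features), both named krt18, a keratin of simple epithelia and of hepatocytes. The larger had 764 and 750 CPM in liver, against 96.9 and 157 in brain, 241 and 201 in gonad and 154 and 143 in muscle, and neither passed without male gonad 1 or male gonad 2, while 1 passed without male brain 1 or male muscle 1. Under the recovered totals neither passed (adjusted p = 0.23 and 0.76). Another feature named krt18 went the other way, lower in liver than in muscle (−3.55, adjusted p = 0.0019). It kept that call under every alternative, so the name krt18 as such did not mark liver. The part of other cell types in the results above was not tested, and in such bulk samples fewer cells of a type and less RNA per cell cannot be told apart.

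Of the 871 marking features 230 carry no gene name. The most abundant of them, described by its closest protein as similar to a three-finger toxin, had 31764 and 37626 CPM in liver, against 13.99 and 7.78 in brain, 29.1 and 120 in gonad and 140 and 76.1 in muscle. It took 1.89 and 2.70% of listed liver counts. Another, described as protein AMBP, the precursor of alpha-1-microglobulin and of a plasma protease inhibitor, had 6105 and 7673 CPM in liver and 0.273 to 1.34 CPM elsewhere. A feature described as a fibrinogen beta chain precursor had 10021 and 15416 CPM in liver and 0.706 to 8.84 CPM elsewhere, so plasma proteins appear among the unnamed features too. These 3 were chosen after their values were seen.

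Female liver, tested in the same way within the 8 female libraries, had 677 features higher than in each other female tissue (4.16% of 16264 tested). Of the 871 features of male liver, 393 were among them, which is 45.1% of the male and 58.1% of the female set. Among the 524 with a log2 difference of 2 or more in each male comparison the shared number was 312 (59.5%). A positive difference in all 3 female comparisons was seen for 737 of the 871 (84.6%), against 21.4% of all features, and none of the 871 was lower in female liver than in each female tissue. Of the 277 features that passed with each male library left out, 199 (71.8%) passed in females. Every feature marking male liver in the plasma transport, coagulation, complement and iron lists (3, 7, 5 and 5, tf and hpx counting in 2) also passed in females. None of the 8 immediate early features did, nor either krt18 feature that marked male liver. The count of 393 was 258 and 260 without female brain 1 and 2, 240 without male brain 1 and 256 without male liver 1. Such a pass in one sex and not in the other is no test of a difference between them.

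**Figure D5:**
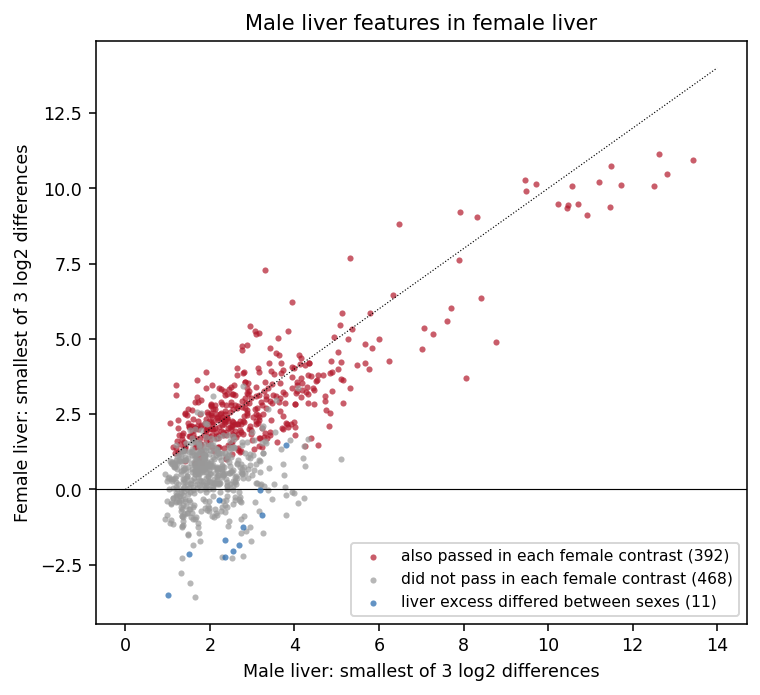
Smallest of the 3 log2 differences in male liver (x axis) and in female liver (y axis) for the 871 features of male liver, whose choice used the x values. Features near the dotted line have equal differences in both sexes, and the 11 whose liver excess differed between the sexes lie below it.

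The difference itself was tested in 1 fit over 16 libraries, as the excess of liver over the mean of the other 3 tissues in males minus the same in females. It passed for 22 features with a larger male excess (0.135%) and 20 with a larger female excess (0.123%), and 2109 features had an unadjusted p below 0.05. With any one of the 16 libraries left out, these counts ranged from 5 to 50 for males and from 4 to 92 for females, and the first moved by over 1.5 times without each library but male muscle 2. Of the 871 features of male liver 11 passed, all with the larger excess in males, a direction their choice favours. CIART, a repressor of the circadian clock, had 715 and 219 CPM in male liver, against 84.8 and 59.2 in male brain, 28.0 and 21.0 in male gonad and 78.6 and 42.7 in male muscle. Its male excess was larger by 4.17 (adjusted p = 0.0143), and 0.059 was its adjusted p without male liver 1. The smallest of its 3 differences was 2.70 in males and −1.84 in females. A mitochondrial nucleotide carrier, slc25a33, had 950 and 350 CPM in male liver, 31.8 and 35.5 in brain, 22.1 and 29.7 in gonad and 135 and 117 in muscle (larger by 4.34, adjusted p = 0.0452). ARHGEF5, an activator of small GTPases, had 88.8 and 125 CPM in male liver and 5.31 to 19.8 CPM in the other male libraries (larger by 2.95, adjusted p = 0.0366). The calls of slc25a33 and ARHGEF5 were each lost without any of several libraries, with adjusted p-values up to 0.22 and 0.076.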

How the data were processed

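RNA of 3-year-old fish was sequenced on an Illumina instrument, per the labels' protocols, which describe 24 libraries, and 16 are analysed here. The authors deposited 1 table of assembled genes with an expected count and an FPKM per library, per the file headers. The expected counts were estimated with RSEM, per the submitters' processing notes, whose version is not given in the sources used here. The assembler, aligner and strand setting are likewise not given. A further 16 value columns, for a replicate 3 of each group, belong to no listed sample and were not used. Columns were matched to samples by title. Names and protein descriptions are the authors' annotation: 11450 of 16270 features carry a name. Features sharing a name may be fragments or copies of 1 gene, whose reads the counting could split.

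Expected counts were rounded to whole numbers and tested with edgeR 4.0.16 (R 4.3.3) with its two-sided quasi-likelihood test and TMM scaling (factors 0.594 to 1.53) and 1 mean per group over the 8 male libraries (4 residual degrees of freedom, median biological coefficient of variation 0.336). The filter of 1 FPKM in at least 2 libraries removed no feature in males. P-values were adjusted by Benjamini-Hochberg over all features of a comparison, and a feature marked liver with an adjusted p below 0.05 and a positive difference in all 3. The SE is the log2 difference over the square root of F. The female libraries had their own fit, and the sex difference 1 fit over 16 libraries. On simulated data for male liver against each other male tissue, with 50 features per size among 16270, the test recovered 0% of 2-fold, 2% of 4-fold and 64% of 8-fold increases and 4% of falls to 0.25 of the level. These rates hold for that setting, in which few features differed. In the data 2152 features passed as higher and 2017 as lower than in brain alone, and the adjustment depends on such numbers. Among the 871 marking features the smallest difference had a median of 2.25 and began at 0.93. Total fragments of each library were recovered by dividing counts by FPKM and effective length. FPKM was used only for the filter, those totals and limma.

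The lists and members were chosen with earlier results of these data known. Named by rule were the 15 features furthest above and the 8 furthest below each tissue, up to 4 marking and 2 lower members of each list, up to 6 with the largest sex difference in each direction, and 3 in each direction of each contrast. For the 15 and the 8 the rule also required both livers to lie beyond all other male libraries. The sex difference was ranked among features marking male liver. Some that meet the rule are counted here without values, and a few genes are not reported here. Alternatives were RLE factors, recovered totals, no filter, a mean of 50 counts, DESeq2 1.42.0, limma 3.58.1 on log2(FPKM + 1) and log2(FPKM + 0.1), a replicate block, 1 fit of all libraries, and each library left out.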

Additional observations from a re-analysis of the deposited data

Results flagged for a closer look

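For 6 named features of male liver, the excess of liver over the mean of the other 3 tissues differed between the sexes. In edgeR's fit over 16 libraries each excess was the larger in males. That direction is favoured by choosing among features that mark male liver. Over all features 22 passed with a larger male excess and 20 with a larger female excess. The male minus female excess (log2) was 4.34 for slc25a33 (adjusted p = 0.0452), 4.17 for CIART (adjusted p = 0.0143), 4.14 for Ube2g1 (adjusted p = 0.0244), 3.26 for a junb feature (adjusted p = 0.0452), 2.95 for ARHGEF5 (adjusted p = 0.0366) and 2.73 for ppp1r26 (adjusted p = 0.0285). The smallest of the 3 differences, positive in males by the choice of these features, was negative in females for each. Choosing the largest sex differences favours low female values too. It was 2.37 in males and −2.26 in females for slc25a33, 2.70 and −1.84 for CIART, and 2.35 and −1.66 for Ube2g1. For junb it was 2.79 and −1.23, for ARHGEF5 2.56 and −2.06, and for ppp1r26 1.497 and −2.16. Ube2g1, a ubiquitin-conjugating enzyme, had 1076 and 311 CPM in male liver, and junb, an immediate early transcription factor, 618 and 211 CPM. Of 24 alternatives, CIART lost its call under 1 (without male liver 1, 0.059), Ube2g1 under 6, ppp1r26 under 11, ARHGEF5 under 14, junb under 16 and slc25a33 under 17. Without male liver 1, which was the higher of the 2 livers for slc25a33, CIART, Ube2g1 and junb, the adjusted p was 0.22, 0.059, 0.12 and 0.26 for these 4.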

How the results depend on the processing

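RLE factors, a mean of 50 counts and 1 fit of all 16 libraries left every count tried within 1.5 times. The sex difference was not run again for the last, as it already came from such a fit. Leaving out the filter changed no count, and since the filter removed no feature in males this is no separate check there. It is still counted among the alternatives. Recovered totals, limma on log2(FPKM + 1) and limma on log2(FPKM + 0.1) gave, in that order, 815, 733 and 698 features higher and 5862, 5419 and 5224 lower than in brain, 669, 629 and 595 higher and 9657, 9339 and 9057 lower than in gonad, and 1183, 1049 and 1062 higher than in muscle. In the same order they gave 305, 297 and 265 features higher than in each tissue, 200, 184 and 184 with the larger difference, 1222, 932 and 1032 lower than in each, 181, 160 and 137 shared with females, 5, 2 and 1 with a larger male excess, and 32 (recovered totals) and 13 (log2(FPKM + 0.1)) with a larger female excess. Each of these 3 scales by the whole library and lowers the median feature. DESeq2 gave 1142 features higher in each, including all 871, and 265 and 221 with a larger male and female excess. The labels do not say what a library number marks, and each group has 2 libraries. The deviations of same-numbered male libraries correlated by 0.19 to 0.59 over 6 tissue pairs, from 1 deviation per tissue. The numbers may pair the libraries, but this was not tested and cannot be told apart here from another trait they share. The replicate block gave 1279 features higher in each (all 871 included), 497 lower in each, and 49 and 42 with a larger male and female excess. Leaving out 1 library each gave 545 to 2643 higher and 660 to 2580 lower (brain), 905 to 3018 and 759 to 3092 (gonad), 1015 to 2222 and 892 to 2773 (muscle), 385 to 903 higher in each, 321 to 513 with the larger difference, 39 to 366 lower in each, 240 to 458 shared with females, and 5 to 50 and 4 to 92 with a larger male and female excess. Then 1 group has 1 library, taken to vary like the others. Of 135 results for named features, 82 kept direction and call under every alternative run. The smallest difference turned to −0.99 and −1.02 for ppp1r26 on log2(FPKM + 1) and log2(FPKM + 0.1), and PRORSD1 ranged from −7.66 to 1.43 against brain with 1 library left out (1.43 without male brain 2). The cause of these turns was not tested. With 2 libraries a group and 222 features under 3 counts in some male library, small differences and low levels are beyond this depth, and a list with no marking feature may still hold differences of that size.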
